A study of Bos taurus with 5 samples.

Results

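Beta-catenin, the protein kinases and scaffolds that destroy it, Nemo-like kinase and the TCF/LEF transcription factors form the core of the canonical Wnt pathway. Their mRNAs were measured in early cattle embryos (Bos taurus) sired by low-performing or by high-performing bulls. The 10 genes were taken by symbol from the deposited table of 27607 genes: CTNNB1, APC, AXIN1, AXIN2, GSK3A, GSK3B, NLK, LEF1, TCF7L1 and TCF7L2. Each symbol matched 1 row, and all 10 were among the 12448 genes tested, since each had more than 1 RPKM (reads per kilobase of gene, scaled to the reads counted in genes) in all 5 pools.

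RNA was sequenced from 2 pools with low-performing sires and 3 pools with high-performing sires, each of 100 whole embryos developed in vitro and labelled as 4-cell stage, although the series text gives 2 to 4 cells. Recombinant Wnt5A, a Wnt ligand, is named in the treatment protocol of all 5 pools alike, without a dose. Whether these embryos were in fact treated is not settled by the labels, so the levels below may or may not be those of untreated embryos. The labels give neither breed nor the measure of sire performance. Nothing in them tells if the pools within a group had different bulls, fertilisations or cultures, so the p-values cover only pool-to-pool spread, possibly technical.

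Without a Wnt signal, the scaffolds APC and axin hold beta-catenin for casein kinase 1 and glycogen synthase kinase 3, and the phosphorylated protein is degraded by the proteasome. A Wnt ligand of the canonical kind blocks this destruction complex through its receptors. Beta-catenin then enters the nucleus and acts with TCF/LEF factors on target genes. Whether Wnt5A acts in this way in these embryos was not tested. Nemo-like kinase phosphorylates TCF/LEF factors and lowers their DNA binding. In the cleaving cattle embryo most mRNA is still inherited from the egg, and the main activation of the embryo's own genome comes at a later stage than the one sampled here. RPKM gives the share of a gene in the reads of a pool, so a lower level need not mean less mRNA per embryo. In pooled embryos, fewer cells with an mRNA and less of it per cell cannot be told apart.

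Reads counted in genes ranged from 67248924 to 113100809 per pool. The members rested on between 572 reads, for TCF7L1, and 39576 reads, for CTNNB1, and counting error at the lowest of these was 4.18%. Egg and cleavage markers such as BTG4, ZAR1 and GDF9 were abundant in all pools, which does not tell the cell stage. Over 10 genes they summed to 16283 and 21830 RPKM in the low-performing pools against 9438 to 13494 RPKM in the high-performing pools. Most of this was BTG4, at 11816 and 16943 RPKM against 6021 to 9357 RPKM. Among these markers the groups overlapped in NLRP5 and ZP2 only. In the others both low-performing pools lay above every high-performing pool, as they did in 29.4% of all genes tested. Markers of cumulus and granulosa cells summed to 189 and 190 RPKM against 191 to 210 RPKM, mostly STAR at 147 to 171 RPKM and HAS2 at 15.4 to 29.0 RPKM, while CYP19A1 was at 0.43 RPKM or less. Sperm and spermatid markers summed to 16.6 and 29.1 RPKM against 10.1 to 11.5 RPKM, mostly ACRV1 and SPA17, with PRM2 and TNP1 at 0 in all pools. Blood markers summed to 19.7 and 17.9 RPKM against 16.5 to 19.0 RPKM, mostly CSF1R, with HBB at 0. The part of these markers in the results was not tested.

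All 10 members had lower average levels in the low-performing pools, and the size ran from a level 44.4% of the high-performing mean for NLK to 96.1% for TCF7L2. The median log2 fold change of the members was -0.40, beside -0.031 over all genes tested. Every fold change is the low-performing minus the high-performing mean of log2(RPKM + 1), and this scale understates the change of low genes. All 10 members lay below 0, as did 53.3% of genes tested. In 5 members, NLK, GSK3B, APC, GSK3A and CTNNB1, both low-performing pools lay below every high-performing pool, and in none did they lie above. Of all genes tested, 29.3% lay below in this way and 29.4% above, 58.7% in all. None of the 10 passed limma with Benjamini-Hochberg adjustment over all genes tested, nor did any other gene (0% of 12448); at an unadjusted p under 0.05, 4 members were lower, and none was higher. Of all genes tested, 15.9% were lower and 19% higher at that level, 1981 and 2367 genes, and limma voom on reads recovered from RPKM also called 0 genes. The authors' deposited table, from a likelihood ratio test on the same pools, gave 3 members an FDR under 0.05, all lower. Of its 27607 genes, 2.45% were lower and 5.51% higher at that FDR. These shares include genes without reads, since 19481 to 20217 genes were above 0 RPKM in each pool. The shares among the 12448 genes tested, which hold all 10 members, were not computed.

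**Figure D1:**
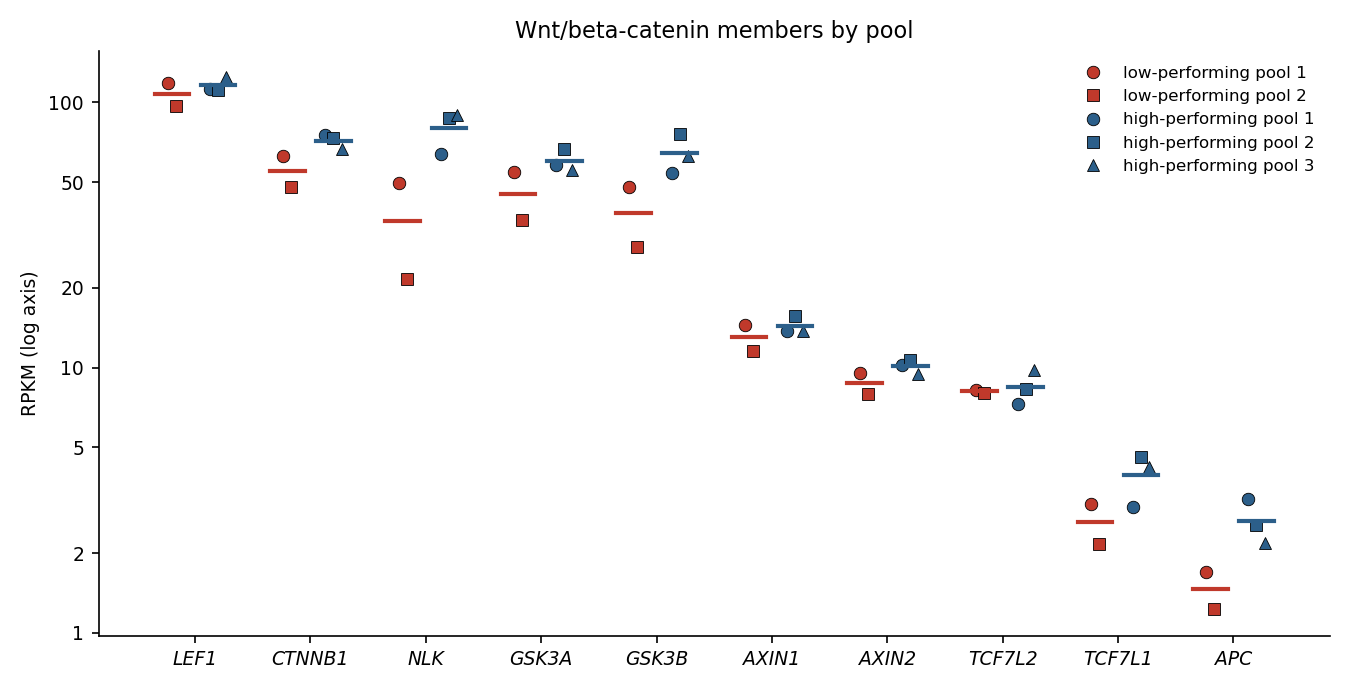
RPKM on a log axis of the 10 members in each pool, ordered by mean level, with low-performing pools in red and high-performing pools in blue. Points are pools and bars are group means. NLK shows the widest gap, with 49.8 and 21.5 RPKM in the low-performing pools below 63.9 RPKM in the lowest high-performing pool, while the groups of LEF1, AXIN1, AXIN2, TCF7L1 and TCF7L2 overlap.

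RPKM is per length, so levels of different genes can be set in order. LEF1 had the highest mean over the 5 pools at 112 RPKM, above 93.5% of genes tested, and its range did not overlap that of the next member. CTNNB1, NLK, GSK3A and GSK3B followed at means of 65.0, 62.4, 54.0 and 53.8 RPKM, and the ranges of neighbours in this order overlapped. By group means NLK changed place among these 4. It was the lowest in the low-performing pools, at 35.7 RPKM, and the highest in the high-performing pools, at 80.3 RPKM. Single pools did not all follow: in low-performing pool 1 NLK, at 49.8 RPKM, exceeded GSK3B, at 48.0 RPKM. In high-performing pool 1 CTNNB1, at 75.5 RPKM, exceeded NLK, at 63.9 RPKM. AXIN1 averaged 13.8 RPKM, apart from GSK3B above it and from AXIN2 below it. AXIN2, at 9.56 RPKM, and TCF7L2, at 8.34 RPKM, overlapped each other. TCF7L1, at 3.40 RPKM, and APC, at 2.17 RPKM, also overlapped and were the lowest, APC above only 15.3% of genes tested.

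CTNNB1 encodes beta-catenin, which also links cadherins to actin at cell contacts. It lies on chromosome 22 from 13798884 to 13845848 (build ARS-UCD1.2, used for all positions here), plus strand, with 18 exon blocks after overlapping exons were merged, totalling 4634 bases. It had 62.6 and 47.7 RPKM in low-performing pools 1 and 2, against 75.5, 73.0 and 66.4 RPKM in high-performing pools 1, 2 and 3. Both low-performing pools were below all high-performing pools, the nearest pair being low-performing pool 1 and high-performing pool 3. The log2 fold change was -0.38 ± 0.16 (SE), with a 95% interval of -0.75 to -0.015 and an adjusted p of 0.132 in limma, within 0.0158 to 0.503 over the alternatives.

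APC, the large scaffold of the destruction complex and a tumour suppressor in the human colon, lies on chromosome 10 at 1167671 to 1299249, minus strand, with 22 exon blocks and 10890 bases, the longest of the members. It had 1.70 and 1.23 RPKM in the low-performing pools, against 3.21, 2.55 and 2.18 RPKM in the high-performing pools. The groups did not overlap. The log2 fold change was -0.56 ± 0.16 (SE; adjusted p = 0.0841 in limma, within 0.0254 to 0.386 over the alternatives), and -0.81 with a pseudocount of 0.1. The authors' deposited table gave APC a log2 fold change of -0.85, positive where low-performing pools are higher, and an FDR of 0.00587.

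The axins are the scaffolds whose amount is thought to limit the complex, and AXIN2 is also a standard target gene of the pathway. AXIN1 (chromosome 25, 313101 to 347292, minus strand) had 14.5 and 11.5 RPKM in the low-performing pools and 13.7, 15.7 and 13.8 RPKM in the high-performing pools, with low-performing pool 1 inside the range of the others. Its log2 fold change was -0.14, with a 95% interval of -0.49 to 0.21. AXIN2 (chromosome 19, 62212833 to 62240091, minus strand) had 9.50 and 7.98 RPKM in the low-performing pools and 10.2, 10.7 and 9.47 RPKM in the high-performing pools. The groups overlapped by a narrow margin, at low-performing pool 1 and high-performing pool 3. Its log2 fold change was -0.19, with a 95% interval of -0.52 to 0.13.

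The kinase paralogs GSK3A and GSK3B phosphorylate beta-catenin for degradation, and both also act on glycogen synthase and many other substrates. GSK3B (chromosome 1, 64646190 to 64861271, minus strand, 2474 bases) had 48.0 and 28.5 RPKM in the low-performing pools, against 53.9, 76.1 and 62.5 RPKM in the high-performing pools. The groups did not overlap, with high-performing pool 1 the closest to the low-performing pools. The log2 fold change was -0.76 ± 0.24 (SE), with a 95% interval of -1.33 to -0.20 and an adjusted p of 0.0913 in limma, within 0.00728 to 0.390 over the alternatives. The authors' deposited table gave GSK3B an FDR of 0.0341. GSK3A (chromosome 18, 51032328 to 51042229, plus strand, 2481 bases) had 54.3 and 36.0 RPKM in the low-performing pools, against 57.7, 66.6 and 55.4 RPKM in the high-performing pools. Low-performing pool 1 lay just under the lowest high-performing pool, and the log2 fold change was -0.43 ± 0.19 (SE; adjusted p = 0.160 in limma, within 0.0111 to 0.667 over the alternatives).

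NLK had the lowest level relative to the high-performing pools of any member. The gene lies on chromosome 19 at 19651228 to 19780827, plus strand, with 11 exon blocks and 4066 bases. Its mRNA stood at 49.8 and 21.5 RPKM in low-performing pools 1 and 2, against 63.9, 87.1 and 89.8 RPKM in high-performing pools 1, 2 and 3. The low-performing pools were 62.0% and 26.8% of the high-performing mean and did not overlap with the high-performing pools, of which pool 1 was the lowest. The log2 fold change was -1.25 ± 0.33 (SE), with a 95% interval of -2.02 to -0.48. The adjusted p was 0.0829 in limma, the smallest value in the fit and one shared by 1049 genes, and it lay within 0.00415 to 0.324 over the alternatives. The authors' deposited table gave NLK a log2 fold change of -1.17 and an FDR of 0.00898.

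The TCF/LEF factors bind the same DNA motif and differ in whether they mainly activate or repress. LEF1, usually an activator (chromosome 6, 17083864 to 17200183, plus strand), had 118 and 97.1 RPKM in the low-performing pools and 112, 111 and 124 RPKM in the high-performing pools. The groups overlapped, since low-performing pool 1 exceeded high-performing pools 1 and 2, and the log2 fold change was -0.11, with a 95% interval of -0.45 to 0.23. TCF7L2 (chromosome 26, 33466276 to 33668370, plus strand) had 8.25 and 8.02 RPKM in the low-performing pools, inside the 7.26, 8.32 and 9.83 RPKM of the high-performing pools, and a log2 fold change of -0.042 with a 95% interval of -0.40 to 0.32.

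TCF7L1, mainly a repressor in mouse embryonic stem cells (chromosome 11, 49674139 to 49876828, minus strand), had 3.06 and 2.17 RPKM in the low-performing pools and 2.97, 4.62 and 4.21 RPKM in the high-performing pools. Low-performing pool 1 lay just above high-performing pool 1, so the groups overlapped. The log2 fold change was -0.44 ± 0.19 (SE; adjusted p = 0.145 in limma, within 0.0551 to 0.556 over the alternatives). With the remaining family gene TCF7, which is not a member, LEF1 made up 80.1% and 82.3% of the family's summed RPKM in the low-performing pools, against 79.8%, 73.7% and 76.2% in the high-performing pools. TCF7 had 18.0 and 10.7 RPKM in the low-performing pools, against 18.3, 26.6 and 24.7 RPKM in the high-performing pools, so the groups did not overlap, and its log2 fold change was -0.68 ± 0.24 (SE; adjusted p = 0.107 in limma), or -0.33 without low-performing pool 2 and -1.03 without pool 1.

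**Figure D2:**
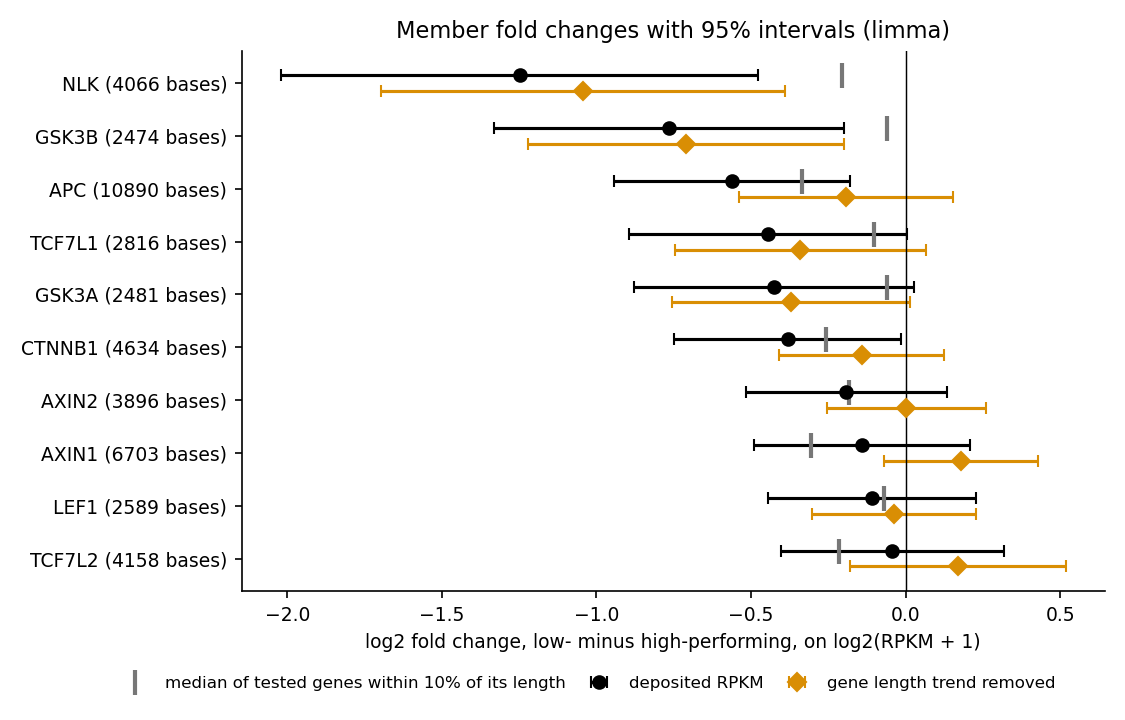
Log2 fold change of each member, low-performing minus high-performing, with its 95% interval in limma, from the deposited RPKM (black) and after removal of the gene length trend (orange). Grey marks give the median of the tested genes whose length is within 10% of the member's. NLK and GSK3B keep intervals below 0 in both fits, while APC and CTNNB1 move from -0.56 to -0.19 and from -0.38 to -0.14.

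Fold changes in these pools varied with gene length, and the median length was 3981 bases for the members beside 2330 bases for all genes tested. Genes within 10% of the length of APC centred on a log2 fold change of -0.34, and those near CTNNB1 on -0.26. For NLK and GSK3B the corresponding medians were -0.20 and -0.059. With a loess trend over length removed from each pool, NLK stood at -1.04, GSK3B at -0.71, GSK3A at -0.37 and TCF7L1 at -0.34. APC stood at -0.19, CTNNB1 at -0.14 and LEF1 at -0.038, while AXIN1 and TCF7L2 turned to 0.18 and 0.17 and AXIN2 to 0.0020. The median of the members was then -0.17, beside 0.0057 over all genes. NLK, GSK3B, GSK3A and APC then lay below all high-performing pools, as did 26.2% of genes tested, and AXIN1 lay above, as did 27.3%.

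**Figure D3:**
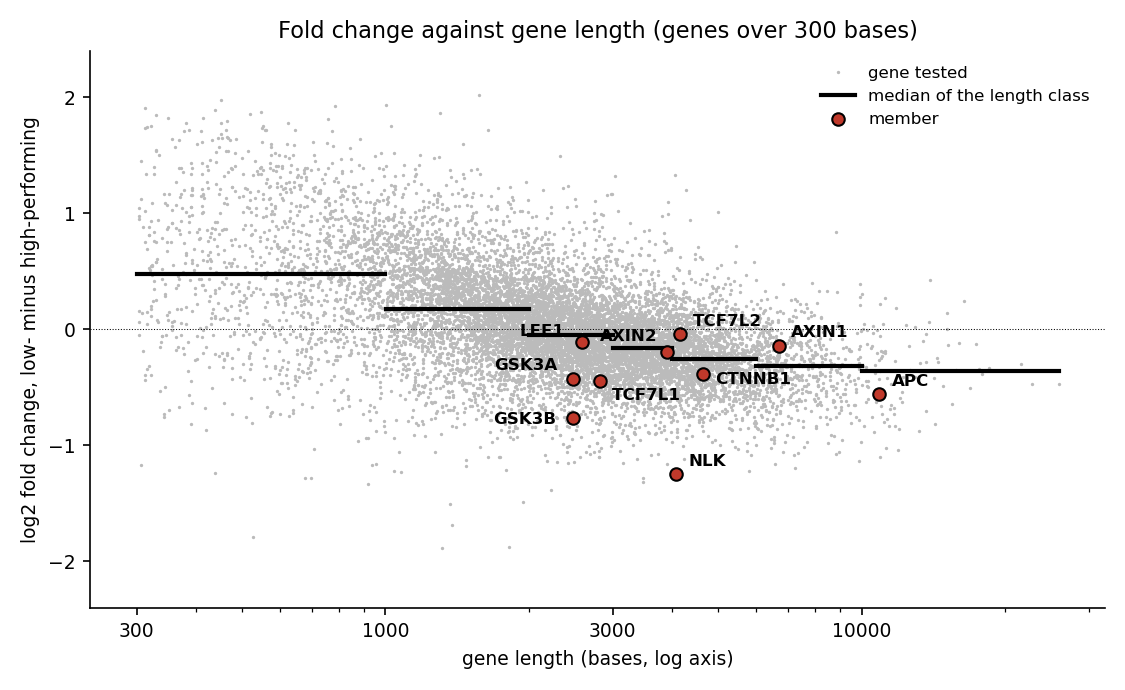
Log2 fold change, low-performing minus high-performing, against gene length on a log axis, with every tested gene over 300 bases in grey, the median of each length class as a black line and the members in red. The medians run from 0.48 up to 1000 bases to -0.36 beyond 10000 bases. NLK and GSK3B lie farther below their class median than AXIN2 and LEF1, while AXIN1 and TCF7L2 lie above theirs.

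Low-performing pool 2 had the lower value of the low-performing pair in all 10 members, as it did in 59.3% of all genes tested. It lay below every high-performing pool in 9 members (48.0% of genes tested), and low-performing pool 1 did so in 5 (32.0%). Neither pool lay above every high-performing pool in any member, which pool 2 did in 37.1% of genes tested and pool 1 in 36.6%. Without low-performing pool 2 the members' median was -0.16 and no member passed limma: NLK stood at -0.66, APC at -0.42, GSK3B at -0.40, TCF7L1 at -0.27, CTNNB1 at -0.19 and GSK3A at -0.13. Without low-performing pool 1, where the single remaining pool was assumed to vary like the others, the median was -0.60. In that fit NLK (-1.83), GSK3B (-1.13), GSK3A (-0.72), APC (-0.70) and CTNNB1 (-0.57) passed limma, and 23.9% of all genes tested passed and were lower. The size of the difference therefore rested on which low-performing pool was counted.

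A ratio of genes in the same pool does not depend on how that pool was scaled, and 4 such log2 ratios were compared. GSK3A over GSK3B, a pair of nearly equal length, was 0.18 and 0.34 in the low-performing pools, against 0.10, -0.19 and -0.17 in the high-performing pools. GSK3A thus made up 53.1% and 55.8% of the summed GSK3 RPKM in the low-performing pools, against 51.7%, 46.7% and 47.0% in the high-performing pools. NLK over CTNNB1 was -0.33 and -1.15 in the low-performing pools, against -0.24, 0.25 and 0.44 in the high-performing pools. In high-performing pools 2 and 3 NLK exceeded CTNNB1, and in the other 3 pools it did not.

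APC over AXIN1 was -3.09 and -3.23 in the low-performing pools, against -2.09, -2.62 and -2.66 in the high-performing pools. TCF7L2 over TCF7L1 was 1.43 and 1.89 in the low-performing pools, against 1.29, 0.85 and 1.22 in the high-performing pools. The groups did not overlap in any of the 4 ratios. Nor did they in 58.7% of single genes tested, and the share over other pairs of genes was not computed. The two-sided exact permutation test gave p = 0.1 for APC over AXIN1 and for TCF7L2 over TCF7L1, the smallest that 10 splits allow, and p = 0.2 for the other pair of ratios; all 4 were 0.2 after Benjamini-Hochberg adjustment. The difference between the groups was 0.35 for GSK3A over GSK3B, -0.89 for NLK over CTNNB1, -0.70 for APC over AXIN1 and 0.54 for TCF7L2 over TCF7L1. With the length trend removed the value for APC over AXIN1 was -0.37, but on log2(RPKM + 1), whereas -0.70 had nothing added to the RPKM. On log2(RPKM + 1) the fold changes of APC and AXIN1 were -0.56 and -0.14 with the trend kept. With it removed they were -0.19 and 0.18. The step from -0.70 to -0.37 therefore does not measure the length trend alone.

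**Figure D4:**
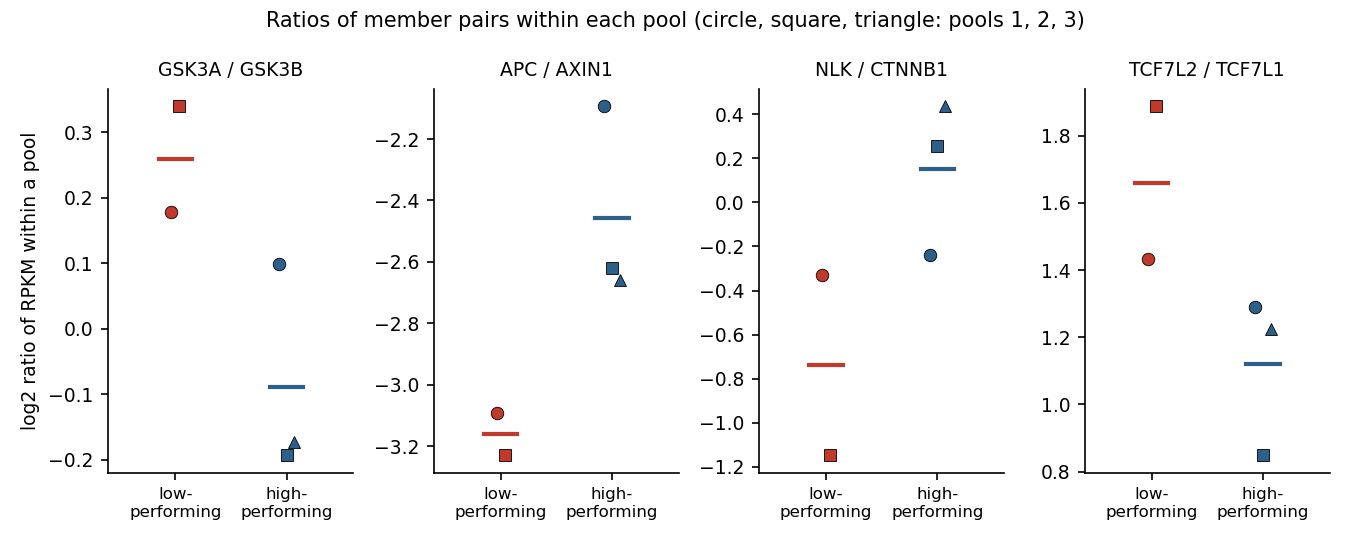
Log2 ratio of RPKM of 4 member pairs within each pool, low-performing pools (red) left of high-performing pools (blue), with bars at group means. Each panel has its own axis. In GSK3A over GSK3B and in NLK over CTNNB1 low-performing pool 1 and high-performing pool 1 lie close together, at 0.18 and 0.10 and at -0.33 and -0.24.

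The pathway around the members was described with 6 lists, in which no gene passed limma adjusted over all genes tested in either direction. The counts in each list stand beside 29.3% of all genes tested below all high-performing pools and 29.4% above. Partners of the destruction complex and the ubiquitin ligase that marks beta-catenin were at a median of -0.21 over 23 genes tested, 12 of them below all high-performing pools and 1 above. The one above was SKP1, the adaptor of that ligase, with 430 and 649 RPKM in the low-performing pools against 399, 186 and 210 RPKM in the high-performing pools. PPP2CB, a catalytic subunit of the phosphatase PP2A, and USP34, a deubiquitinase of axin, had log2 fold changes of -0.61 ± 0.16 and -0.66 ± 0.19 (SE). Without low-performing pool 2 they stood at -0.39 and -0.35, and with the length trend removed USP34 stood at -0.29 and SKP1 at 0.71, where SKP1 had 1.08 in the fit of all 5 pools. Leaving out low-performing pool 2 moved the medians of the first 5 lists toward 0. They stood at -0.12 for this list and -0.059 for the list with the receptors. For the genes around NLK and the nuclear cofactors they stood at -0.14 and -0.14, and for the adhesion partners at -0.10.

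Receptors, Dishevelled proteins, FRATs and R-spondins, listed together as inhibitors of the complex, had a median of -0.16 over 17 genes tested. The list takes in whole families, and whether each gene blocks the complex was not tested. Of these, 6 lay below all high-performing pools and 1 above, beside 29.3% and 29.4% of all genes tested. DVL3, a Dishevelled protein, had 24.9 and 21.3 RPKM in the low-performing pools against 27.7, 31.6 and 29.0 RPKM in the high-performing pools. FZD6, a Frizzled receptor, stood at -0.32, the R-spondin RSPO1 at 0.28 and the GSK3-binding FRAT1 at 0.076. With the length trend removed DVL3 stood at -0.23 beside -0.34 before, FZD6 at -0.095 and FRAT1 at -0.38. Without low-performing pool 2 FZD6 stood at -0.091 and FRAT1 at -0.019, and without pool 1 they stood at -0.55 and 0.17. The co-receptor LRP5 and 6 more genes of this list were under the filter, at 1.07 RPKM or less.

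Genes around Nemo-like kinase had a median of -0.36 over 11 tested. Of these, 8 lay below all high-performing pools and 1 above, beside 29.3% and 29.4% of all genes tested. TAB2, an adaptor of the kinase TAK1 upstream of NLK, had 21.7 and 11.3 RPKM in the low-performing pools against 27.4, 35.9 and 33.0 RPKM in the high-performing pools, without overlap. FOXO1, a transcription factor that NLK phosphorylates, had 111 and 59.6 RPKM in the low-performing pools against 140, 185 and 167 RPKM in the high-performing pools. RNF138, a ubiquitin ligase that acts with NLK on TCF/LEF proteins, had 2.58 and 3.08 RPKM in the low-performing pools against 1.97, 1.39 and 2.12 RPKM in the high-performing pools, the 1 gene of this list above all of them. With the length trend removed TAB2 stood at -0.88, FOXO1 at -0.84 and RNF138 at 0.13, and the list's median was -0.15. Without low-performing pool 2 TAB2 stood at -0.53 and FOXO1 at -0.55, beside -0.98 and -0.99 with all pools.

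Nuclear cofactors of beta-catenin and TCF had a median of -0.26 over 22 genes tested. Of these, 13 lay below all high-performing pools and 2 above, beside 29.3% and 29.4% of all genes tested. The acetyltransferase EP300 had 23.4 and 10.7 RPKM in the low-performing pools against 33.3, 41.6 and 38.8 RPKM in the high-performing pools, and its relative CREBBP had 46.0 and 25.5 RPKM against 60.3, 76.8 and 69.7 RPKM. The 2 above were CBY1, an inhibitor of beta-catenin, at 82.9 and 110 RPKM against 72.4, 59.8 and 66.5 RPKM, and the corepressor TLE4, at 33.4 and 39.2 RPKM against 29.4, 27.8 and 28.1 RPKM. Other such genes were lower or almost unchanged. CTNNBIP1, which also inhibits beta-catenin, lay below all high-performing pools at -0.78, or -0.46 without low-performing pool 2. TLE1, TLE2 and TLE3 stood at -0.15, -0.24 and -0.21, and TLE5 at 0.0083. Cadherins, catenins and other adhesion partners of beta-catenin had a median of -0.31 over 8 genes tested. All 8 were below 0, as were 53.3% of all genes tested. CTNND1, which encodes p120-catenin, stood at -0.60 ± 0.18 (SE), and CDH2, N-cadherin, at -0.60 ± 0.21 (SE) with 0.68 and 0.99 RPKM against 1.62, 2.64 and 1.24 RPKM. With the length trend removed this median was -0.074, and CTNND1 and CDH2 stood at -0.29 and -0.34. Without low-performing pool 2 CTNND1 stood at -0.33, EP300 at -0.67, CREBBP at -0.57, CBY1 at 0.32 and TLE4 at 0.22. With all pools they stood at -0.60, -1.20, -0.98, 0.52 and 0.34. CDH2 went the other way, at -0.72 without that pool and -0.48 without low-performing pool 1, beside -0.60 with all pools. The length trend removed, CREBBP stood at -0.63, CBY1 at 0.29 and TLE4 at 0.54.

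Target genes of the pathway had a median of 0.033 over 12 genes tested, or -0.049 with a mean of at least 5 RPKM required. Of the 12, 4 lay below all high-performing pools and 3 above, beside 29.3% and 29.4% of all genes tested. MYC, CCND1, LGR5, NKD2, SP5 and TBXT, targets in other tissues, were under the filter, at 0.88 RPKM or less in every pool. CDX2, the trophectoderm factor, had 21.1 and 17.5 RPKM in the low-performing pools against 27.0, 36.2 and 33.2 RPKM in the high-performing pools. FOSL1, an AP-1 subunit, had 10.5 and 6.73 RPKM against 12.3, 15.4 and 15.7 RPKM. JUN, another AP-1 subunit, had 22.7 and 27.7 RPKM against 21.9, 17.1 and 17.6 RPKM, and CDX1 had 126 and 148 RPKM against 111, 108 and 107 RPKM. All 4 kept their direction with the length trend removed, where CDX1 stood at 0.21 beside 0.33 before. Without low-performing pool 2 FOSL1 stood at -0.43, JUN at 0.26 and CDX1 at 0.21, beside -0.71, 0.40 and 0.33 with all pools.

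**Figure D5:**
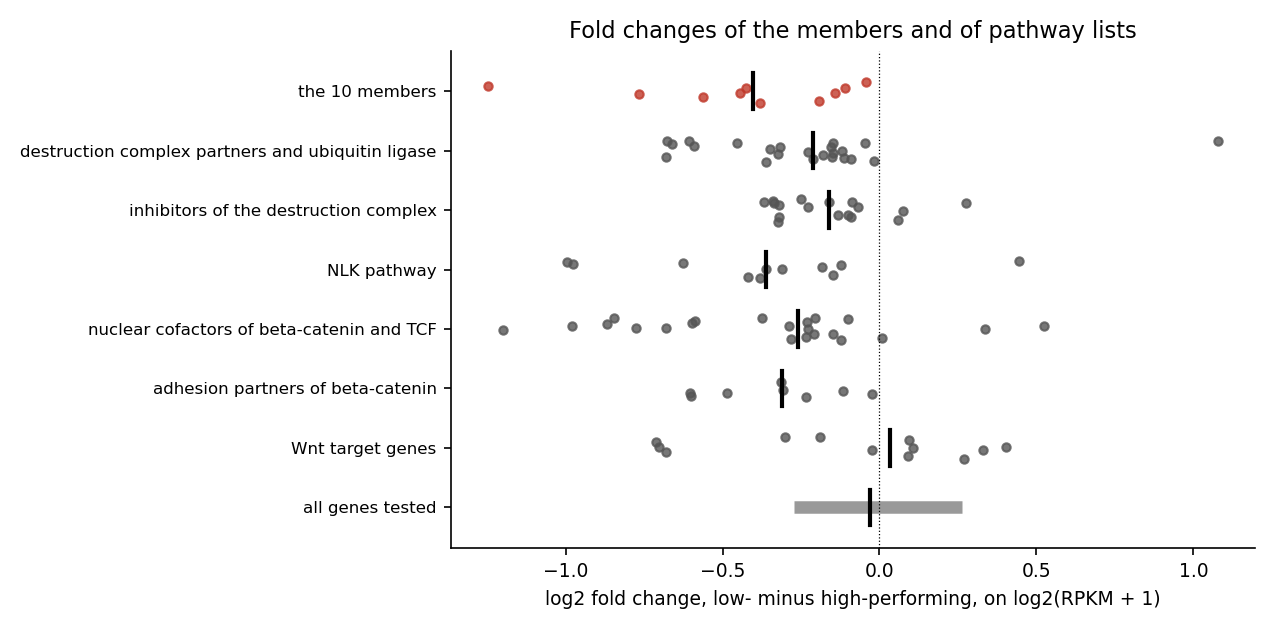
Log2 fold change, low-performing minus high-performing, of each tested gene of the 10 members (red) and of the 6 pathway lists (grey), with black bars at medians; for all genes tested, the grey band spans the middle quartiles. The member median is -0.40, the medians of the first 5 lists lie between -0.36 and -0.16, and that of the target genes is 0.033; without low-performing pool 2 those 5 lie between -0.14 and -0.059.

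The tested genes nearest to NLK in pattern were sought among 7869 named genes with a mean of at least 5 RPKM, by the root mean square difference of log2(RPKM + 1) over the 5 pools after centring. They were ELAVL3, an RNA-binding protein gene, at 0.052, ANKIB1 at 0.073 and KIF2A, a kinesin that takes microtubules apart, at 0.077. ELAVL3 had 12.2 and 4.96 RPKM in the low-performing pools, against 16.0, 20.4 and 21.1 RPKM in the high-performing pools. Of the members at that level, which leaves out APC and TCF7L1, GSK3B was the nearest to NLK, at 0.30. It ranked only 217 among the 7869 genes. The nearest to CTNNB1 were the cytoskeletal scaffold gene IQGAP1 at 0.020, the cell polarity gene LLGL1 at 0.021 and DCAF6 at 0.024. Among the same members the nearest to CTNNB1 was GSK3A, at 0.10 and rank 742.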

How the data were processed

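The authors deposited RPKM per gene and pool. The build ARS-UCD1.2 and the tools FastQC, featureCounts and edgeR are named per the submitters' processing notes; aligner, versions and strand setting: not given in the sources used here. Multiplied out, the deposited RPKM came to whole reads (tolerance 1e-06), and depths are sums of these. Beside RPKM the deposited table has the authors' log2 fold change, mean CPM on a log2 scale, likelihood ratio score, p-value and FDR.

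The members and gene lists were chosen with earlier results of these data known. limma (3.58.1, R 4.3.3) with an intensity trend was run on log2(RPKM + 1) for 12448 genes with at least 1 RPKM in at least 2 of the 5 pools, comparing 2 low-performing with 3 high-performing pools, two-sided, with Benjamini-Hochberg adjustment over all genes and a threshold of 0.05. Named were all members and, per list, the 2 genes of smallest p in each direction (list genes were otherwise chosen after their values were seen). Of 112 list entries, 111 symbols were matched; PYGO2 was not. Alternatives were other pseudocounts, filters and scalings, removal of a loess trend over gene length (span 0.5), the replicate number as a block, each pool left out and, added after seeing the data, limma voom on the recovered reads. The script was tested on simulated data. No exon of another gene overlapped a member. Counting errors cover reads only. Figures used Python 3.11.15 and matplotlib 3.10.9.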

Additional observations from a re-analysis of the deposited data

How the results depend on the processing

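limma called 0 genes, and also 0 under pseudocounts of 0.1 and 0.5, no filter, a mean of at least 5 RPKM, quantile normalization, a trimmed-mean factor, no length trend, limma without trend, and limma voom. Leaving out 1 pool gave 0 to 5436 calls, above 0 only without low-performing pool 1. With the replicate block there were 833 calls, 197 lower and 636 higher, and NLK had an adjusted p of 0.00908 in limma. High-performing pool 3 has no low-performing pool of its number, so it added nothing to the group difference in that fit. The difference rested on same-numbered pools 1 and 2 only, and NLK stood at -1.16 there as it did without high-performing pool 3. The correlation of the deviations of same-numbered pools from their group means was -0.48 for number 1 and -0.26 for number 2. With 2 low-performing pools these deviations mirror each other, so the values are not independent checks, and the labels do not say that a number marks a shared batch; a pairing was not shown. The number of members below all high-performing pools, 5, ran from 5 to 9 over the pools left out and from 4 to 6 elsewhere. The median of the members ran from -0.60 to -0.16 over the pools left out and from -0.45 to -0.17 elsewhere.

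NLK, GSK3B, GSK3A, APC, CTNNB1 and TCF7L1 kept their direction under every alternative run on them. AXIN1 turned to 0.18 and AXIN2 to 0.0020 with the length trend removed, and TCF7L2 turned to 0.17 there and to 0.059 with the replicate block. Over the pools left out AXIN1 ran from -0.29 to 0.012, LEF1 from -0.25 to 0.028 and TCF7L2 from -0.14 to 0.059. None of these values passed the threshold, and the cause was not tested. APC and TCF7L1 fall under a mean of 5 RPKM and have no value there. The 4 ratios kept their sign under every alternative run. The planned edgeR and DESeq2 alternatives were not run; limma voom is the one test run here on the recovered reads.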

Other observations

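The AXIN1 share of summed axin RPKM varied little, at 60.4% and 59.1% in the low-performing pools against 57.3%, 59.5% and 59.3% in the high-performing pools. CTNNB1 over the axin sum was 2.61 and 2.45 in the low-performing pools, against 3.16, 2.77 and 2.86 in the high-performing pools. CTNNB1 over the GSK3 sum was 0.61 and 0.74 in the low-performing pools, against 0.68, 0.51 and 0.56 in the high-performing pools, so the groups overlapped. CTNNB1 over APC was 36.9 and 38.8 in the low-performing pools, against 23.5, 28.7 and 30.5 in the high-performing pools. These ratios were chosen after their values were seen and were not tested.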
